A study of Mus musculus with 6 samples.

Results

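The extracellular proteases of the matrix metalloproteinase (MMP) and ADAMTS families, the ADAMTS-like proteins (ADAMTSL) and the tissue inhibitors of metalloproteinases (TIMP) were followed in hearts of newborn mice. Members were taken by name and biotype, as protein coding genes with a symbol of the form Mmp, Adamts, Adamtsl or Timp and a number. This gave 50 of the 54532 genes measured: 22 MMP, 19 ADAMTS, 5 ADAMTSL and 4 TIMP genes. Mmp1a matches the same form of name but is not listed as protein coding and was left out. RNA-seq of whole hearts compared 3 libraries of the genotype Wtapflox/flox, called Wtap-flox here, with 3 libraries of the genotype Wtap-CKO, all from mice aged 4 days. Wtap encodes a regulatory subunit of the methyltransferase that places N6-methyladenosine (m6A) in messenger RNA. The submitters call the hearts of a group independent biological replicates. The sources used here give neither the Cre driver nor the deleted exons nor the strain.

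MMPs and ADAMTS proteases are secreted or membrane-anchored zinc enzymes that cut proteins of the extracellular matrix. They are made as inactive proenzymes, many of them are activated by furin-like convertases or by plasmin, and the TIMP proteins block their active site. ADAMTSL proteins share the binding domains of ADAMTS proteases without the protease domain and attach to fibrillin microfibrils. In the developing heart, cleavage of the proteoglycan versican by ADAMTS proteases belongs to the remodelling of the cardiac jelly and of the valves.

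Between 15649028 and 18045599 reads per library were assigned to genes. Levels are given as FPKM, here fragments scaled by gene length and by a normalization factor for each library. A single read in a gene of 1 kb was worth 0.0564 to 0.0647 FPKM, so the precision of a level falls with the level and with gene length. Libraries of a group correlated with each other at 0.957 to 0.982 and with the other group at 0.927 to 0.957. Wtap itself stood at 9.14 ± 1.60 FPKM (SD, n = 3) in Wtap-flox and at 8.84 ± 0.948 FPKM in Wtap-CKO. The difference of -0.04 on the log2 scale had a 95% interval from -0.37 to 0.29 (limma, adjusted p = 0.893). An exact two-sided permutation test returned p = 0.9, and 0.1 is the lowest value that such a permutation test can return here. This whole-gene value does not check the labels, since it also counts reads outside the deleted part, and every direction below rests on the labels. The tissue label was met: 8 cardiomyocyte markers summed to 16270 to 19761 FPKM in Wtap-flox and to 17171 to 21181 FPKM in Wtap-CKO. Wtap-CKO 3 stood apart in neutrophil markers, which summed to 87.2 FPKM there, to 15.0 and 12.8 FPKM in Wtap-CKO 1 and 2 and to 5.78 to 10.9 FPKM in Wtap-flox.

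The bases just before the transcription start are shown for 4 of the genes that rose, the ADAMTS-like gene Adamtsl2, the protease gene Adamts1, the inhibitor gene Timp4 and the membrane-anchored Mmp23, so that the results below can be read beside the letters of their promoters. Each sequence is the 250 bases before the start of the RefSeq gene, on the gene's strand and 5′ to 3′, in GRCm38.p6. They lie at chr2:27079129-27079378 on the plus strand for Adamtsl2, and on the minus strand at chr16:85803114-85803363 for Adamts1, chr6:115252206-115252455 for Timp4 and chr4:155653385-155653634 for Mmp23. Capitals mark a TATA box (TATAAA) and GC boxes (GGGCGG), the letters that Sp and KLF factors can bind.
Adamtsl2: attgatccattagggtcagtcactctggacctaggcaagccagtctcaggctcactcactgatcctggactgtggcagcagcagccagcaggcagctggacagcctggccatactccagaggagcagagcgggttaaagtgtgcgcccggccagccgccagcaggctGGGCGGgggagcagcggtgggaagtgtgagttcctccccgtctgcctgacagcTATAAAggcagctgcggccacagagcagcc
Adamts1: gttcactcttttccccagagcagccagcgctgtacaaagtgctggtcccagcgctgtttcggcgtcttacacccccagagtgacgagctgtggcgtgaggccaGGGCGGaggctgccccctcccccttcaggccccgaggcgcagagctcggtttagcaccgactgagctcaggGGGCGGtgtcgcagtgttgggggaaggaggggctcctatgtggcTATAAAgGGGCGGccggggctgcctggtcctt
Timp4: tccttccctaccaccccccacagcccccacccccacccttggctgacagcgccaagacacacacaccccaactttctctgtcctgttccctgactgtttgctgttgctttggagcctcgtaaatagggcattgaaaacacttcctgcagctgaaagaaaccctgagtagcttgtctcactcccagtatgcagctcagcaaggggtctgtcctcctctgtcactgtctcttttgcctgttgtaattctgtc
Mmp23: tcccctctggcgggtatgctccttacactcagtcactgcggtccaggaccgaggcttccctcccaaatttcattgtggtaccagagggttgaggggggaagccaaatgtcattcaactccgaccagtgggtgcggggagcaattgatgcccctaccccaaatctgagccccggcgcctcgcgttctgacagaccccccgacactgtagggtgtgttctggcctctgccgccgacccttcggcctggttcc
Counted back from the start, with -1 as the base before it, Adamtsl2 had a TATA box at -30 and a GC box at -83. Adamts1 had a TATA box at -32 and GC boxes at -25, -76 and -147. Neither motif was found in the windows of Timp4 and Mmp23.

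Among the genes of the family that were abundant enough to test, the ADAMTS-like gene Adamtsl2 and the versican-cleaving protease gene Adamts1 had the largest differences on the scale of the test, log2(FPKM + 1), and both were higher in Wtap-CKO. By the ratio of mean FPKM, Timp4 (4.02) came before Adamts1 (3.67). A rise was also called for Adamts8, Adamts5, Mmp23, Mmp28, Adamtsl5 and Timp4, and a fall for Adamts19, Adamts7 and Adamtsl4. Genes were tested when their mean over the 6 libraries reached 1 FPKM, which left 29 of the 50 members, by limma on log2(FPKM + 1) with Benjamini-Hochberg adjustment over all 12568 tested genes and a threshold of 0.05. The nearest members outside that limit were Adamts20 at 0.964 and Mmp17 at 0.740 FPKM, and the nearest inside it were Adamtsl3 at 1.35 and Timp4 at 1.40 FPKM. Of the 29 tested members 8 were called higher (27.6%), beside 9.91% of all tested genes, and 3 lower (10.3%), beside 6.69% of all tested genes. The 8 include Timp4, which reached the limit only through the Wtap-CKO libraries, so the share is a description and not support. The median log2 fold change of the tested members was 0.03, beside 0.0029 for all tested genes, and members lay on both sides of 0. All 3 Wtap-CKO values lay above the Wtap-flox values in 9 of the 29 tested members, beside 19.8% of all tested genes. All 3 lay below them in another 9 of the 29, beside 17.3% of all tested genes. A fit of the recovered reads by limma-voom called 8 members higher and 6 lower, where 11.7% and 8.46% of all tested genes were called. In whole hearts, fewer cells of a type and less RNA per cell cannot be told apart.

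**Figure D1:**
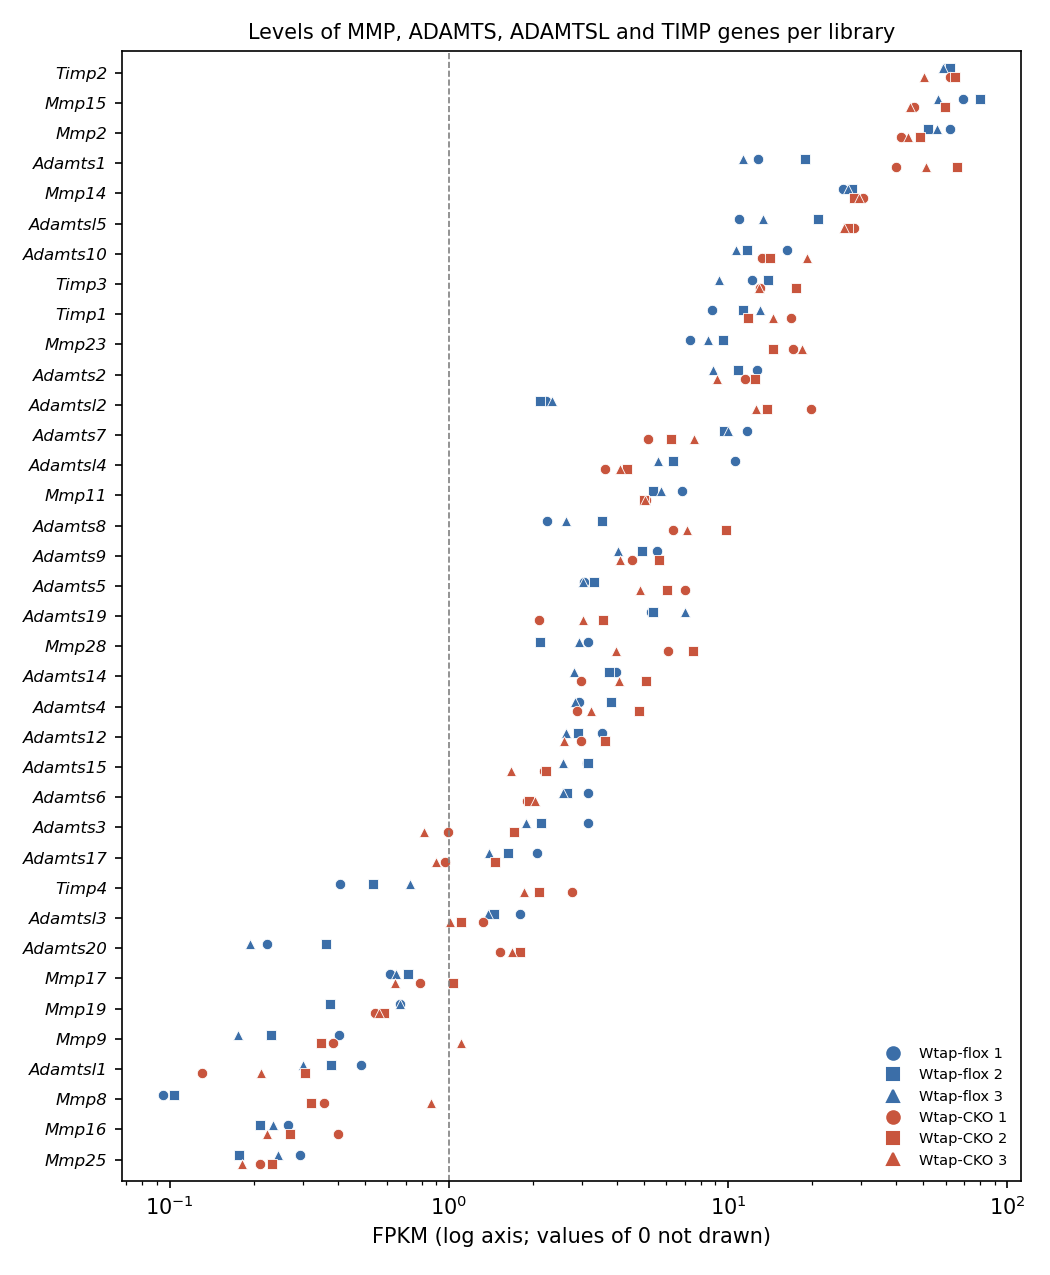
Level of each member with a mean of at least 0.1 FPKM in the 6 libraries (horizontal log axis, FPKM; blue for Wtap-flox, red for Wtap-CKO; circle, square and triangle for library 1, 2 and 3 of a group; the dashed line marks 1 FPKM). Timp2, Mmp15 and Mmp2 head the order, and the red points of Adamtsl2 (12.5 to 19.8) and Adamts1 (39.9 to 66.1) lie well to the right of the blue ones.

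**Figure D2:**
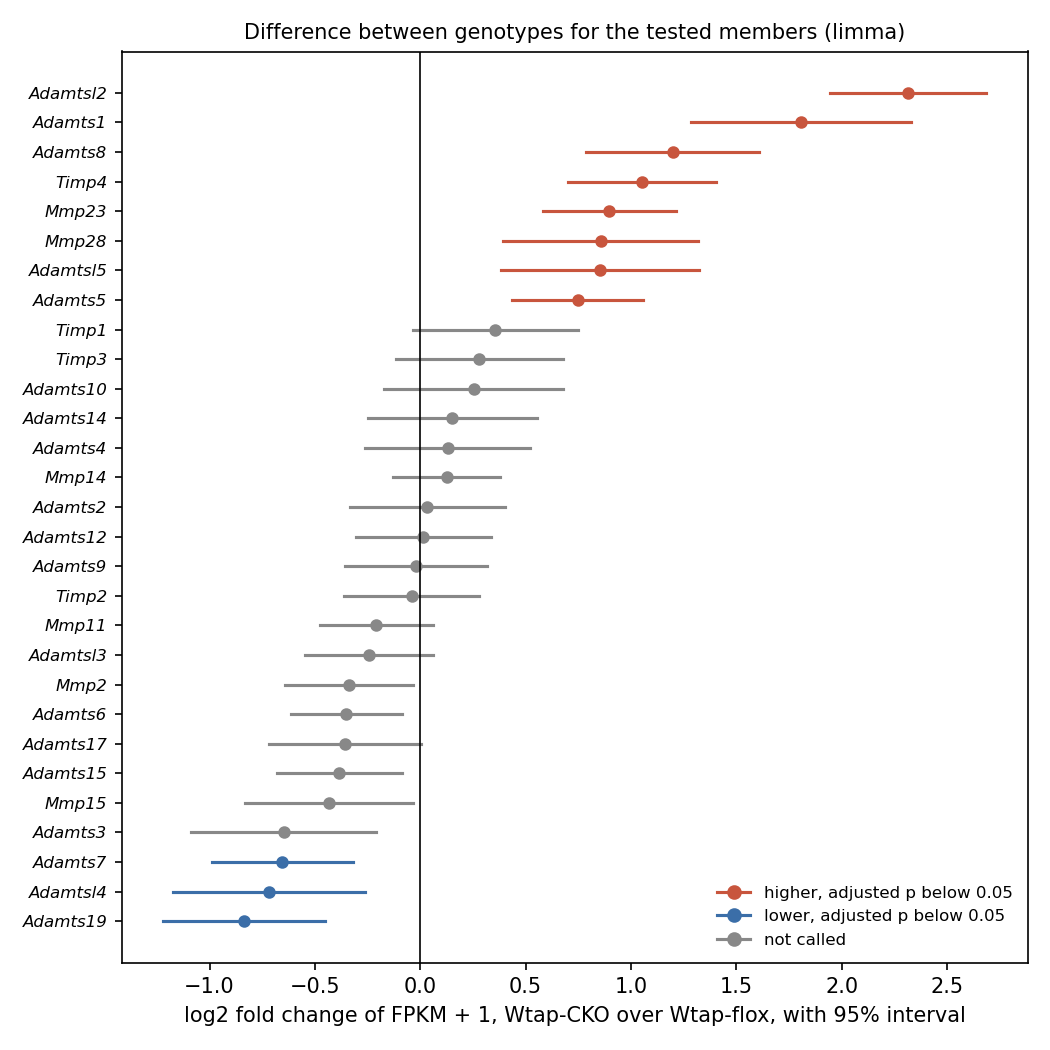
Difference between the groups for the 29 tested members (horizontal axis, log2 fold change of FPKM + 1, Wtap-CKO over Wtap-flox; points are limma estimates and lines 95% intervals; red, blue and grey for higher, lower and not called at an adjusted p of 0.05). The estimates run from 2.32 for Adamtsl2 to -0.84 for Adamts19, and 18 members were not called.

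Among the MMPs a rise of 2 genes was called and no fall, out of 6 tested, beside 9.91% and 6.69% of all tested genes. Mmp23, a short membrane-anchored MMP that lacks the hemopexin domain (ENSMUSG00000029061, chromosome 4, 155650655 to 155653384, minus strand), was at 7.31, 9.60 and 8.49 FPKM in Wtap-flox and at 17.1, 14.4 and 18.4 FPKM in Wtap-CKO. The mean level rose 1.96-fold, from 8.46 ± 1.15 to 16.6 ± 2.02 FPKM (log2 fold change 0.90, SE 0.14, adjusted p = 0.00405, limma). All 3 Wtap-CKO libraries were above all Wtap-flox libraries, and the call was made under every one of 20 alternative settings.

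Mmp28, epilysin, a secreted MMP with a furin cleavage site in its propeptide (ENSMUSG00000020682, chromosome 11, 83440768 to 83463071, minus strand), was at 3.14, 2.11 and 2.91 FPKM in Wtap-flox and at 6.11, 7.47 and 3.97 FPKM in Wtap-CKO. The groups did not overlap, but Wtap-CKO 3 was close to the highest Wtap-flox library. Its log2 fold change was 0.86 (SE 0.20, adjusted p = 0.0235, limma). The call was lost when Wtap-flox 2 (adjusted p = 0.0802), Wtap-flox 3 (0.0592), Wtap-CKO 1 (0.0804) or Wtap-CKO 2 (just above the threshold) was removed, and with no filter or TPM scaling. Mmp28 shares 466 bases with 1700020L24Rik on the opposite strand, which was also higher, at 2.74 ± 0.278 in Wtap-flox and 6.28 ± 1.10 FPKM in Wtap-CKO (log2 fold change 0.95, adjusted p = 0.00293). The sources used here do not say whether reads were counted by strand, so reads from the shared bases cannot be told apart.

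The abundant MMPs were not called. Mmp2, gelatinase A, which cuts denatured collagen and basement membrane collagen, was at 62.5, 52.0 and 56.1 FPKM in Wtap-flox and at 41.7, 48.6 and 43.9 FPKM in Wtap-CKO. Mmp15, a transmembrane MMP, was at 69.2, 79.6 and 56.3 FPKM in Wtap-flox and at 46.4, 59.9 and 44.6 FPKM in Wtap-CKO. The groups did not overlap for Mmp2 and did for Mmp15, and both missed the threshold, Mmp2 at a log2 fold change of -0.34 (interval -0.64 to -0.04, adjusted p = 0.12) and Mmp15 at -0.43 (interval -0.83 to -0.03, adjusted p = 0.129). Mmp2 was called lower with TPM scaling (adjusted p = 0.0389) and Mmp15 with array weights (adjusted p = 0.0204). Mmp14, a transmembrane MMP and the main activator of pro-MMP2, was at 25.8 to 27.7 FPKM in Wtap-flox and at 28.1 to 29.5 FPKM in Wtap-CKO, a log2 fold change of 0.13 with an interval of -0.13 to 0.38 (adjusted p = 0.488). That sign turned with TPM scaling, which moves the median of all tested genes by -0.14. Mmp11, stromelysin 3, was at 5.37 to 6.81 FPKM in Wtap-flox and at 4.99 to 5.06 FPKM in Wtap-CKO (log2 fold change -0.21, adjusted p = 0.265). It shares 3367 bases with the far more abundant Chchd10 (147 FPKM in Wtap-flox and 142 FPKM in Wtap-CKO) on the opposite strand, so its level is uncertain.

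Among the proteoglycanases, the ADAMTS proteases that cut versican, aggrecan and related proteoglycans, a rise of 3 of 6 tested genes was called and no fall. Over all tested genes the shares were 9.91% higher and 6.69% lower. Adamts1 (ENSMUSG00000022893, chromosome 16, 85793827 to 85803113, minus strand) was at 12.8, 18.8 and 11.3 FPKM in Wtap-flox and at 39.9, 66.1 and 51.1 FPKM in Wtap-CKO. The lowest Wtap-CKO library was thus above 2 times the highest Wtap-flox library. Its mean rose 3.67-fold, from 14.3 ± 3.99 to 52.4 ± 13.2 FPKM (log2 fold change 1.81, interval 1.29 to 2.33, adjusted p = 0.00205, limma). Adamts1 was the most abundant of the ADAMTS and ADAMTSL genes in Wtap-CKO, whereas in Wtap-flox the mean of Adamtsl5, 15.0 FPKM, was slightly higher.

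Adamts5, the major aggrecanase of mouse cartilage and a versican-cleaving enzyme of heart valves, is the neighbour of Adamts1 on chromosome 16 (ENSMUSG00000022894, 85856173 to 85901828, minus strand), 53059 bases away with no coding gene between them. It was at 3.05, 3.30 and 3.02 FPKM in Wtap-flox and at 7.01, 6.06 and 4.85 FPKM in Wtap-CKO, and the groups did not overlap. The mean rose 1.91-fold, from 3.12 ± 0.154 to 5.97 ± 1.08 FPKM (log2 fold change 0.75, SE 0.14, adjusted p = 0.00792). The libraries did not follow the order of Adamts1: Wtap-CKO 2 was highest for Adamts1 and Wtap-CKO 1 for Adamts5.

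Adamts8 and Adamts15 are a second pair of neighbours, 20109 bases apart on chromosome 9, and are transcribed away from each other. Adamts8, a proteoglycanase expressed in lung and heart (ENSMUSG00000031994, 30942562 to 30963838, plus strand), was at 2.24, 3.55 and 2.63 FPKM in Wtap-flox and at 6.34, 9.82 and 7.12 FPKM in Wtap-CKO. Its mean rose 2.77-fold with no overlap (log2 fold change 1.20, SE 0.18, adjusted p = 0.00347). Adamts15, another versican-cleaving protease (30899155 to 30922452, minus strand), lay the other way, at 3.12, 3.16 and 2.57 FPKM in Wtap-flox and at 2.19, 2.22 and 1.67 FPKM in Wtap-CKO. Those groups did not overlap either, but the log2 fold change of -0.38 missed the threshold (adjusted p = 0.0778), and it passed with TPM scaling, array weights and limma-voom (adjusted p of 0.0302 to 0.0425).

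The other tested proteoglycanases overlapped between the groups. Adamts4, aggrecanase 1, was at 3.19 ± 0.544 FPKM in Wtap-flox and 3.63 ± 1.02 FPKM in Wtap-CKO (log2 fold change 0.13, interval -0.26 to 0.52), and its sign turned with array weights, in the TPM scaling without mitochondrial genes and without Wtap-CKO 2. Adamts9, a versican-cleaving protease of the heart and vasculature, was at 4.84 ± 0.766 and 4.76 ± 0.803 FPKM (log2 fold change -0.02, interval -0.36 to 0.32). Its sign turned when Wtap-flox 1, Wtap-CKO 1 or Wtap-CKO 3 was left out. Adamts20, the closest relative of Adamts9, fell just outside the limit of 1 FPKM. It was at 0.223, 0.364 and 0.194 FPKM in Wtap-flox and at 1.53, 1.80 and 1.68 FPKM in Wtap-CKO, which is 118 reads against 738 reads over the 3 libraries of a group. In the fit that lowered the limit to 0.1 FPKM, in which 5.77% of all genes were called higher and 4.18% lower, Adamts20 was called (log2 fold change 1.08, adjusted p = 0.00351). Its mean reached 0.1 FPKM in both groups.

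None of the 3 procollagen N-proteinases, which trim the amino ends of fibrillar procollagens, was called. Adamts3, which also activates VEGF-C, was at 3.15, 2.14 and 1.89 FPKM in Wtap-flox and at 0.992, 1.71 and 0.815 FPKM in Wtap-CKO. All Wtap-CKO values lay below all Wtap-flox values, and the log2 fold change of -0.65 had an adjusted p of 0.0514. It passed in 6 of 19 alternatives, among them upper-quartile scaling (adjusted p = 0.0446) and the fit without Wtap-CKO 2 (0.0231). Adamts2, the main N-proteinase of type I procollagen, was at 10.8 ± 1.97 and 11.0 ± 1.71 FPKM (log2 fold change 0.03, interval -0.33 to 0.40), with a sign that turned under upper-quartile, TPM and quantile scaling. Adamts14 was at 3.51 ± 0.620 and 4.05 ± 1.05 FPKM (log2 fold change 0.15, interval -0.25 to 0.55), a sign that turned with array weights.

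A fall of 2 of the other ADAMTS proteases was called, where 6.69% of all tested genes were called lower. Adamts19, an orphan protease whose loss causes heart valve disease in humans (ENSMUSG00000053441, chromosome 18, 58836764 to 59053678, plus strand), was at 5.29, 5.39 and 7.03 FPKM in Wtap-flox and at 2.10, 3.55 and 3.01 FPKM in Wtap-CKO. Its mean fell to 0.489 times that of Wtap-flox with no overlap (log2 fold change -0.84, SE 0.17, adjusted p = 0.012), and the call was missed in 1 of 19 alternatives, the fit with no filter (adjusted p = 0.05004). Adamts7, which cuts cartilage oligomeric matrix protein (ENSMUSG00000032363, chromosome 9, 90163069 to 90208071, plus strand), was at 11.7, 9.69 and 9.96 FPKM in Wtap-flox and at 5.15, 6.24 and 7.57 FPKM in Wtap-CKO. Those groups did not overlap, and the log2 fold change was -0.65 (SE 0.15, adjusted p = 0.0184). The call was lost on removing Wtap-flox 1 (adjusted p = 0.0676) or Wtap-CKO 1 (0.0656) and with no filter (0.0628). Adamts7 shares 6045 bases with Tbc1d2b on the opposite strand, which stood at 4.31 FPKM in Wtap-flox and 3.03 FPKM in Wtap-CKO (log2 fold change -0.38, adjusted p = 0.161).

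The relatives of these proteases did not all move with them. Adamts12, which like Adamts7 cuts cartilage oligomeric matrix protein, was at 3.02 ± 0.466 and 3.06 ± 0.523 FPKM, a log2 fold change of 0.01 with an interval of -0.31 to 0.34 and a sign that turned under upper-quartile and TPM scaling. Adamts6 and Adamts10 are a pair that act on fibrillin microfibrils. Adamts6 was at 3.16, 2.64 and 2.56 FPKM in Wtap-flox and at 1.91, 1.94 and 2.04 FPKM in Wtap-CKO (log2 fold change -0.35, adjusted p = 0.0734), and it was called lower with limma-voom, array weights and TPM scaling (adjusted p of 0.0296 to 0.0393). Adamts10 was at 12.9 ± 2.97 and 15.5 ± 3.24 FPKM (log2 fold change 0.25, interval -0.17 to 0.68, adjusted p = 0.394). For Adamts6 the groups lay apart and for Adamts10 they overlapped. Adamts17, a protease linked to Weill-Marchesani syndrome like Adamts10, was at 1.40 to 2.08 FPKM in Wtap-flox and at 0.899 to 1.47 FPKM in Wtap-CKO, with overlap (log2 fold change -0.36, adjusted p = 0.159).

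Among the ADAMTS-like genes a rise of 2 and a fall of 1 was called, out of 4 tested. The shares of all tested genes were 9.91% and 6.69%. Adamtsl2, which binds fibrillin and latent TGF-beta binding protein and is mutated in geleophysic dysplasia (ENSMUSG00000036040, chromosome 2, 27079379 to 27108981, plus strand), was at 2.23, 2.13 and 2.34 FPKM in Wtap-flox and at 19.8, 13.8 and 12.5 FPKM in Wtap-CKO. The Wtap-flox libraries were nearly equal, and every Wtap-CKO library was above 5 times the highest of them. The mean rose 6.88-fold, from 2.23 ± 0.106 to 15.4 ± 3.87 FPKM (log2 fold change 2.32, SE 0.16, interval 1.94 to 2.69, adjusted p = 0.000204, limma). The call was made under all 20 alternatives, with log2 fold changes from 2.13 to 2.75.

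Adamtsl5, a microfibril-binding protein (ENSMUSG00000043822, chromosome 10, 80339110 to 80348412, minus strand), was at 10.9, 20.9 and 13.3 FPKM in Wtap-flox and at 28.3, 26.9 and 25.9 FPKM in Wtap-CKO. The Wtap-CKO libraries were close together and above the scattered Wtap-flox libraries (log2 fold change 0.85, SE 0.21, adjusted p = 0.0254). The call was lost when any library but Wtap-flox 2 was left out (Wtap-flox 1, Wtap-flox 3, Wtap-CKO 1, Wtap-CKO 2 and Wtap-CKO 3, adjusted p of 0.0556 to 0.084), with array weights (0.0536) and with no filter (0.0873). Adamtsl4, a microfibril-associated protein needed to anchor the eye lens (ENSMUSG00000015850, chromosome 3, 95676201 to 95687917, minus strand), was at 10.6, 6.32 and 5.62 FPKM in Wtap-flox and at 3.63, 4.33 and 4.09 FPKM in Wtap-CKO. Wtap-flox 1 was far above the other libraries, the groups did not overlap, and the log2 fold change was -0.72 (SE 0.20, adjusted p = 0.042). The call was lost on removing any library but Wtap-flox 3 (adjusted p of 0.0692 to 0.127), with the lower limit of 0.1 FPKM (0.0711) and with no filter (0.122). Adamtsl3 was at 1.38 to 1.80 FPKM in Wtap-flox and at 1.01 to 1.33 FPKM in Wtap-CKO, without overlap (log2 fold change -0.24, adjusted p = 0.251).

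Of the 4 TIMP genes a rise of Timp4 alone was called, where 9.91% of all tested genes were called higher. Timp4, the inhibitor best known from the adult heart (ENSMUSG00000030317, chromosome 6, 115241892 to 115252205, minus strand), was at 0.409, 0.534 and 0.728 FPKM in Wtap-flox and at 2.76, 2.10 and 1.86 FPKM in Wtap-CKO. The groups lay well apart, and the mean rose 4.02-fold, from 0.557 ± 0.161 to 2.24 ± 0.469 FPKM, or from 168 to 647 reads. The log2 fold change was 1.05 (SE 0.15, adjusted p = 0.00315), which the pseudocount of 1 makes smaller than the ratio of FPKM. Timp4 was the least abundant TIMP in both groups. Timp1, a broad inhibitor induced in injured tissue, was at 8.79, 11.3 and 13.0 FPKM in Wtap-flox and at 16.8, 11.7 and 14.5 FPKM in Wtap-CKO, with overlap (log2 fold change 0.36, interval -0.03 to 0.75, adjusted p = 0.195). Timp3, the inhibitor that stays bound to the matrix and also blocks ADAMTS proteases, was at 11.8 ± 2.34 and 14.4 ± 2.65 FPKM (log2 fold change 0.28, interval -0.12 to 0.67). Timp2, which with MMP14 takes part in the activation of pro-MMP2, was at 60.4 ± 1.71 and 59.0 ± 7.74 FPKM (log2 fold change -0.04, interval -0.36 to 0.28), and the sign turned without Wtap-CKO 3.

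Timp1, Timp3 and Timp4 lie inside Syn1, Syn3 and Syn2, genes of the synapsin family, on the opposite strand. Syn1 and Syn3 had means of 0.105 and 0.0534 FPKM, far below Timp1 and Timp3. Syn2 was at 0.313 to 0.430 FPKM in Wtap-flox and at 0.395 to 0.678 FPKM in Wtap-CKO, closer to the level of Timp4. A second coding gene across the span of Timp4, Gm17482, was listed at 0 in 5 libraries and at 2.36 FPKM in Wtap-CKO 3. Timp4 was higher in Wtap-CKO 1 and 2, where Gm17482 was listed at 0, than in Wtap-CKO 3.

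Summed levels per family are given next, and they follow their most abundant genes. The 19 ADAMTS genes summed to 91.9, 88.6 and 74.4 FPKM in Wtap-flox and to 106, 147 and 123 FPKM in Wtap-CKO. The 5 ADAMTSL genes summed to 26.0, 31.2 and 23.0 FPKM and to 53.1, 46.4 and 43.8 FPKM. The groups lay apart in both families. Adamts1 accounted for most of the first difference, with a rise of its mean by 38.1 FPKM against 40.4 FPKM for the family. Without it the other 18 ADAMTS genes summed to 79.1, 69.8 and 63.1 FPKM in Wtap-flox and to 66.2, 80.6 and 72.0 FPKM in Wtap-CKO, which overlap. Without Adamtsl2 the other 4 ADAMTSL genes summed to 20.6 to 29.1 FPKM in Wtap-flox. In Wtap-CKO they summed to 31.3 to 33.4 FPKM, without overlap. Among those genes the mean rose for Adamtsl5 alone, from 15.0 to 27.0 FPKM. Means were lower in Wtap-CKO for Adamtsl1 (0.388 and 0.216 FPKM), Adamtsl3 (1.54 and 1.15 FPKM) and Adamtsl4 (7.50 and 4.02 FPKM). The 22 MMP genes summed to 171 ± 11.1 FPKM in Wtap-flox and 155 ± 9.90 FPKM in Wtap-CKO, and the 4 TIMP genes to 83.8 ± 3.61 and 90.1 ± 9.22 FPKM, both with overlap. MMP and ADAMTS transcripts together stood at 3.06 ± 0.227 times the TIMP transcripts in Wtap-flox and at 3.13 ± 0.379 times in Wtap-CKO, a difference within the spread of the libraries. These sums were not tested.

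**Figure D3:**
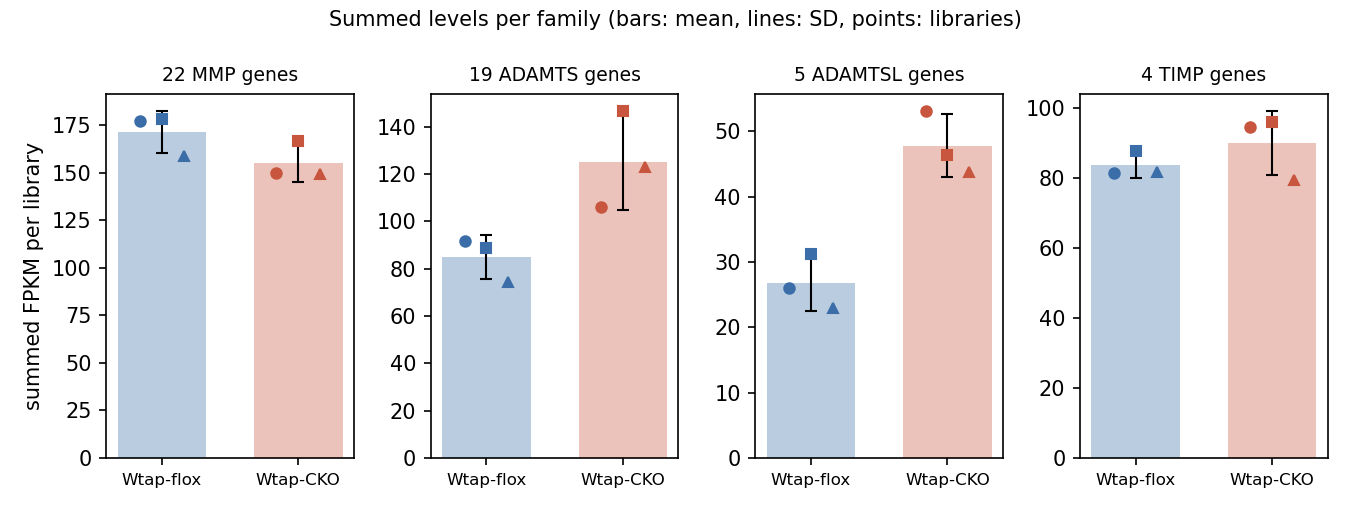
Summed FPKM of each family per library (bars, mean of 3 libraries; lines, SD; circle, square and triangle, library 1, 2 and 3; each vertical axis starts at 0 and has its own scale). The Wtap-CKO points lie above all Wtap-flox points for ADAMTS (106 to 147 against 74.4 to 91.9) and ADAMTSL genes (43.8 to 53.1 against 23.0 to 31.2) and overlap with them for MMP and TIMP genes; without Adamts1 the ADAMTS sums overlap too.

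The remaining 21 members were too low to test, 16 of them MMP genes. Mmp1b, Mmp7, Mmp10, Mmp20 and Mmp27 were at 0 reads in every library, where 3 reads would be at most 0.0591 FPKM for Mmp20 and 0.182 FPKM for Mmp7. These 5 and Mmp13, Mmp12, Mmp3 and Mmp8 are the 9 members of a cluster of collagenases, stromelysins and relatives on chromosome 9, 7272514 to 7699585, and none of the cluster was tested. Mmp12, the macrophage elastase, had 18 reads over the 3 Wtap-flox libraries and 33 over the 3 Wtap-CKO libraries. Mmp3, stromelysin 1, had 1 and 8 reads, and the collagenase Mmp13 had 3 and 8 reads. Mmp24, Mmp21, Adamts13, Adamts16 and Adamts18 also had means below 0.1 FPKM.

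Mmp8 and Mmp9, the collagenase and the gelatinase stored in neutrophil granules, were highest in the library with the most neutrophil marker transcripts. Mmp8 was at 0.0946, 0.104 and 0 FPKM in Wtap-flox and at 0.358, 0.320 and 0.865 FPKM in Wtap-CKO, or 8 against 63 reads. Mmp9 was at 0.405, 0.231 and 0.175 FPKM in Wtap-flox and at 0.385, 0.348 and 1.11 FPKM in Wtap-CKO. The Mmp9 groups overlapped, and neither gene was called in the fit from 0.1 FPKM (adjusted p = 0.0824 for Mmp8 and 0.333 for Mmp9). Of the 8 neutrophil markers, 5 could be tested and a rise of 1 was called, where 9.91% of all tested genes were called higher. The marker was Retnlg, which rose from 0.369 to 3.59 FPKM (adjusted p = 0.00475, limma). Retnlg reached the limit of 1 FPKM only through the Wtap-CKO libraries, so that its call supports nothing about the list. S100a8, a calcium-binding protein of neutrophil cytosol, was at 1.41, 1.90 and 1.63 FPKM in Wtap-flox and at 5.26, 2.80 and 25.9 FPKM in Wtap-CKO. The 3 untested markers, Elane, Ly6g and Mpo, named here after their values were seen, were at no more than 0.115 FPKM in any library, too low to compare. The part of neutrophils in the Mmp8 and Mmp9 levels was not tested.

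**Figure D4:**
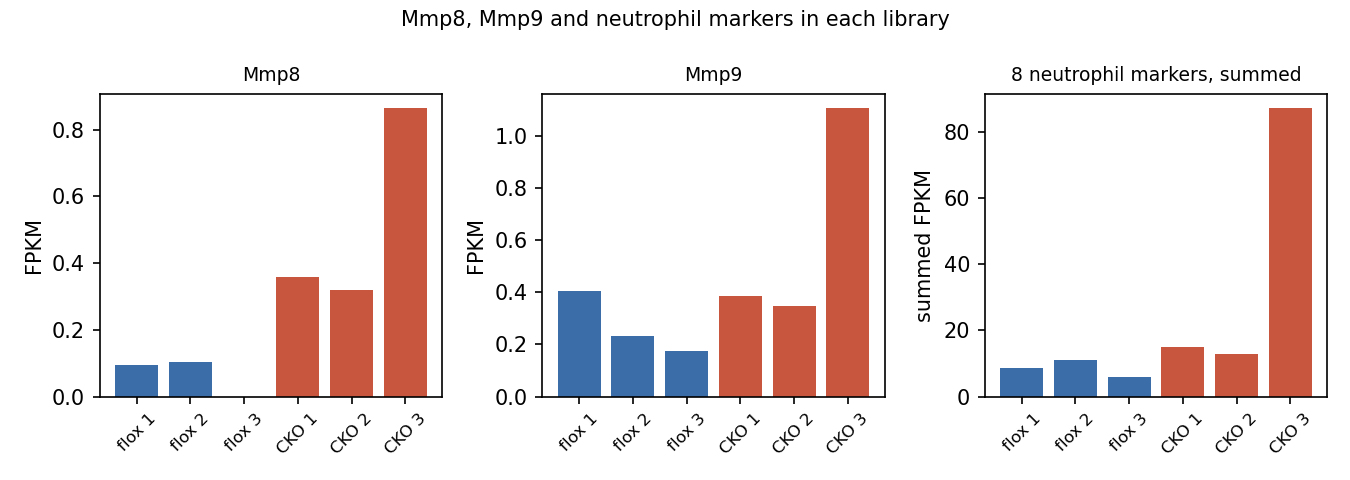
Mmp8 (left) and Mmp9 (middle) in FPKM and the summed FPKM of 8 neutrophil markers (right) in each library, blue for Wtap-flox and red for Wtap-CKO (axes start at 0 and differ in scale). Wtap-CKO 3 is highest in all 3 panels, at 0.865, 1.11 and 87.2 FPKM.

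The other untested members with means from 0.1 to 1 FPKM showed smaller differences. In the fit from 0.1 FPKM, log2 fold changes were -0.19 for Adamtsl1 (adjusted p = 0.301), 0.13 for the membrane-anchored Mmp17 (0.542), 0.07 for the transmembrane Mmp16 (0.708) and -0.03 for the leukocyte MMP Mmp25 (0.844). Mmp19, at 0.570 ± 0.170 FPKM in Wtap-flox and 0.564 ± 0.0216 FPKM in Wtap-CKO, had 104 and 98 reads.

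Markers of other cells in the heart moved in part as well. The counts stand beside 9.91% of all tested genes called higher and 6.69% called lower. Of 8 macrophage markers a rise of 4 was called (C1qb, Lyve1, C1qa and Mrc1), and their sum was 37.7 to 41.5 FPKM in Wtap-flox and 55.0 to 87.2 FPKM in Wtap-CKO. That count dropped to 0 without Wtap-flox 2 and to 1 when Wtap-flox 1, Wtap-flox 3 or Wtap-CKO 1 was removed. It was also 0 with no filter, and 2 at the limit of 0.1 FPKM or with TPM scaling. Of 8 markers of fibroblasts, the cells that make much of the cardiac matrix, no rise and a fall of 1 was called, Dpt. That call was lost on removing any library but Wtap-CKO 3, with no filter and at the limit of 0.1 FPKM. The sums overlapped (407 to 504 and 368 to 467 FPKM). Of 7 endocardial and valve markers a rise of 1 was called, the tendon and valve factor Scx, from 5.73 to 18.9 FPKM (adjusted p = 0.00168), and their sums were 139 to 141 and 132 to 170 FPKM. Of 4 tested epicardial markers a rise of Krt19 was called, and the 8 listed summed to 28.6 to 32.6 and 40.5 to 46.6 FPKM. Of 7 tested mural markers a rise of 1 (Cspg4, also listed as a proteoglycan) and a fall of 1 (Abcc9) was called. The rise was lost on removing any library but Wtap-CKO 3, with no filter, at the limit of 0.1 FPKM and with TPM scaling. Of 8 endothelial markers a rise of 1 (Emcn) and a fall of 1 (Kdr) was called. The fall was lost on removing any library, with the replicate block, with no filter, at the limit of 0.1 FPKM and without the robust step. Of 5 tested mast cell markers a fall of 1 was called, lost on removing any library but Wtap-flox 2. It was also lost with no filter, the limit of 0.1 FPKM, quantile scaling, the replicate block and limma-voom, and without the robust step. Of 6 tested erythroid markers none was called. The part of these cells in the levels of the proteases was not tested.

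Substrates of the ADAMTS proteases were called in both directions. Of 15 tested genes of proteoglycans and other matrix proteins a rise of 3 and a fall of 4 was called. Over all tested genes 9.91% were called higher and 6.69% lower. The median log2 fold change of the list was 0.0034. Thbs1, thrombospondin 1, an ADAMTS1 substrate and activator of latent TGF-beta, rose from 14.7 ± 4.39 to 48.7 ± 7.79 FPKM (log2 fold change 1.69, adjusted p = 0.00156). Lum, the small collagen-binding proteoglycan lumican, fell from 39.3 ± 4.47 to 19.0 ± 3.63 FPKM (log2 fold change -1.02, adjusted p = 0.00468). Bgn, biglycan, rose from 56.6 to 95.9 FPKM (log2 fold change 0.74, adjusted p = 0.0127), a call lost without Wtap-CKO 1 (adjusted p = 0.0542). Thbs2, thrombospondin 2, was called lower (log2 fold change -0.57, adjusted p = 0.0176), and the call was lost on removing Wtap-flox 1 (0.0621), Wtap-flox 2 (0.0518) or Wtap-CKO 1 (0.0588). Over the fits leaving out a library, 1 to 4 of these genes were called higher and 1 to 4 lower, with 1 lower when Wtap-flox 1, Wtap-flox 2 or Wtap-CKO 1 was removed, 2 lower without Wtap-flox 3 and 1 higher without Wtap-CKO 1. Vcan, versican, named here after its values were seen because it is the substrate shared by Adamts1, Adamts5 and Adamts9, was at 8.06 ± 0.713 and 11.0 ± 1.94 FPKM. Its log2 fold change of 0.40 missed the threshold (adjusted p = 0.0976) and passed it without Wtap-CKO 3 (0.0206).

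Genes for fibrillar collagens and for the proteins that process, modify and cross-link them were called higher in 8 of 19 tested cases and lower in none. Of the collagen chains only Col11a1 was called, and the other calls were of genes for processing proteins. The median log2 fold change of the list was 0.28, and 9.91% of all tested genes were called higher and 6.69% lower. Plod2, a lysyl hydroxylase of collagen telopeptides, rose from 8.56 to 24.9 FPKM (log2 fold change 1.41, adjusted p = 0.00208), and P4ha1, a catalytic subunit of prolyl 4-hydroxylase, rose by 0.79 (adjusted p = 0.00409). Loxl2, a cross-linking lysyl oxidase, rose by 0.71 (adjusted p = 0.0075), and the minor fibrillar collagen gene Col11a1 rose by 1.38 (adjusted p = 0.0062). Col3a1, a major collagen of the heart, was lower without passing the test, at -0.41 (adjusted p = 0.128). Over the fits leaving out a library 5 to 8 genes of the list were called higher, with 5 without Wtap-flox 1 or Wtap-flox 3. With either TPM scaling 6 were called higher and 1 lower, and at the limit of 0.1 FPKM 8 higher and 1 lower.

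Genes of microfibril proteins and of TGF-beta and its storage, which include partners of ADAMTSL proteins, were called higher in 8 of 20 tested cases. None was called lower. Their median log2 fold change was 0.41, and the shares of all tested genes were 9.91% higher and 6.69% lower. Tgfb2 rose from 5.49 ± 0.503 to 23.8 ± 3.61 FPKM (log2 fold change 1.93, adjusted p = 0.000204) and Tgfb3 from 7.38 to 18.4 FPKM (1.21, adjusted p = 0.000707). Fbln2, a fibulin of developing valves, rose by 0.89 (adjusted p = 0.00639), and Ltbp3, a latent TGF-beta binding protein, rose by 0.61 (adjusted p = 0.00956). Fbln1, the fibulin that serves as a cofactor of ADAMTS1, was at -0.39 (adjusted p = 0.0573). It was called lower with upper-quartile, TPM and quantile scaling, array weights and limma-voom (adjusted p of 0.0208 to 0.046). Over all alternatives 0 to 2 genes of the list were called lower. The count of 8 was 4 on removing Wtap-CKO 1 or any Wtap-flox library (Wtap-flox 1, 2 or 3). It was 5 without Wtap-CKO 2 and 9 without Wtap-CKO 3. It was also 4 with either TPM scaling or no filter, and 5 with upper-quartile scaling or the limit of 0.1 FPKM. With limma-voom it was 10 and with array weights 12.

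Among plasminogen activators, convertases and other protease inhibitors, which control the activation of the proenzymes, a rise of 3 of 17 tested genes and no fall was called. Their median log2 fold change was 0.19, and 9.91% of all tested genes were called higher and 6.69% lower. Tfpi2, a Kunitz-type inhibitor of plasmin, rose by 0.80 (adjusted p = 0.00409). Cd44, a hyaluronan receptor that holds MMP9 at the cell surface, rose by 0.62 (adjusted p = 0.0145), a call lost without Wtap-flox 1 (0.0553). Furin, the convertase that activates many of these proteases, was at 16.1 and 23.9 FPKM (log2 fold change 0.54, adjusted p = 0.0525). Pcsk6, a related convertase, was at -0.50 (adjusted p = 0.129).

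The promoter windows of 35 members were in the RefSeq table, 20 of them tested members, among them 6 of the 8 that rose and 1 of the 3 that fell. Letters were searched on both strands in the 250 bases before the start and compared with 8784 promoters of tested coding genes. The TATA box TATAAA was in 2 of the 20 members, Adamtsl2 and Adamts1, and in 6.09% of all promoters. The GC box GGGCGG was in 16 of the 20 members, 4 of them among the 6 that rose (Adamtsl2, Adamts1, Mmp28 and Adamtsl5), and in 62.3% of all. The AP-1 site TGANTCA was in 0 of 20 members and in 3.62% of all promoters, and the TEAD site CATTCC was in 1 of 20 and in 10.6%. Neither the MEF2 site nor the SRF CArG box was found in the 20 members, beside 1.70% and 1.22% of all promoters. The median GC content was 64.0% in the members and 60.4% in all.

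The core letters of the sequence at which m6A is written, GGACT, were counted in 1 reference transcript per gene. The 29 tested members had a median of 1.06 matches per kb, beside 1.05 per kb in 11131 tested coding genes. The 8 members that rose had a median of 1.05 per kb, the 3 that fell 0.919 and the 18 not called 1.06. The groups of members thus had densities near that of all genes, with a range from 0 to 2.31 per kb over the tested members. Mmp23 had no match. These counts describe letters in the transcript, and methylation was not measured in these data.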

How the data were processed

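Polyadenylated RNA of 6 hearts, 3 per genotype, was sequenced. The submitters' processing notes name CASAVA, the aligner HISAT2 2.0.5, the counter featureCounts 1.5.0-p3, DESeq2 1.20.0 and the build GRCm39. The coordinates in the file nevertheless lay within 1000 bases of those in GRCm38.p6 for 94.9% of 20423 coding genes, and within that distance of GRCm39 for 3.30% of 21728, so they are given as GRCm38. The authors deposited FPKM values, 1 column per library, for 54532 genes. Multiplied by gene length, 100.0% of the nonzero values were whole multiples of 1 step in each library (tolerance 0.01 step), so reads (or read pairs) could be recovered. The library sizes implied by the step were proportional to median-ratio size factors, so they were not plain read totals. No column was left unused.

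Genes of the whole table whose mean reached 1 FPKM entered a linear model in limma 3.58.1 (R 4.3.3) on log2(FPKM + 1), using its variance trend and robust option. Two-sided p-values were adjusted by Benjamini-Hochberg, the threshold was 0.05, and intervals are at 95%. The pseudocount understates the change of low genes. On simulated data with known changes the procedure made more false calls than its nominal rate, so calls just under the threshold are weak. Other steps used Python 3.11.15 with pandas 2.3.3, numpy 2.4.6, matplotlib 3.10.9 and scipy 1.17.1.

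The members, the lists of other genes and the tests were chosen with earlier results of these data known. Every tested member is named, and a list may give the 4 genes of smallest adjusted p plus 1 of the opposite direction. Genes that overlap a member are named with it. Some genes these rules allow are not reported here. Lists are described by counts and medians, with no test of the list. Promoters come from RefSeq (GRCm38.p6) and were matched by symbol, and transcripts from GENCODE vM39. Protein sequences were not used here. The alternatives, listed in the closing section, were all planned, except that family sums without their most strongly rising gene were added after seeing the data. Libraries of equal number in the 2 groups were not treated as pairs in the main fit. The correlations of their deviations from the group means were -0.216, -0.075 and -0.076, and -0.138 to 0.264 for unequal numbers. With 3 libraries per group such values cannot settle whether libraries were paired.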

Additional observations from a re-analysis of the deposited data

How the results depend on the processing

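The 20 alternative fits used pseudocounts of 0.1 and 0.5, no filter, means of at least 0.1 and 5 FPKM, upper-quartile, TPM and quantile scaling, TPM without mitochondrial genes, a replicate block, array weights, limma-voom on recovered reads, limma without its variance trend or its robust step and each library left out in turn, and 2 stricter thresholds were tried beside them. Over the members' log2 fold changes in all alternatives, 499 kept their direction and their side of the threshold, 26 lost the call, 19 gained it and 23 changed sign. Members called higher, 8 as reported, were 5 at a mean of at least 5 FPKM, where Timp4, Mmp28 and Adamts5 were not tested. They were 4 at an absolute log2 fold change of at least 1 and 6 to 7 when a library was left out. Members called lower, 3 as reported, were 0 with no filter, 7 with TPM scaling, 8 with TPM without mitochondrial genes, 7 with array weights, 6 with limma-voom, 0 at an adjusted p below 0.01, 0 at an absolute log2 fold change of at least 1 and 1 to 3 when a library was left out. TPM scaling moved the median of all tested genes by -0.14, TPM without mitochondrial genes by -0.15 and upper-quartile scaling by -0.07. With TPM scaling 799 genes were called higher and 1600 lower over the table, against 1245 and 841 as deposited, with upper-quartile scaling 990 and 1191, and with array weights 2056 and 1676. The 28 calls of higher genes over the pathway lists became 15 at an adjusted p below 0.01, 10 at an absolute log2 fold change of at least 1 and 18 (without Wtap-flox 1) to 30 when a library was left out. The 7 lower calls became 2 with no filter, 11 with upper-quartile scaling, 16 with either TPM scaling, 15 with array weights, 12 with limma-voom, 1 under each stricter threshold and 1 to 8 when a library was left out, with 1 on removing Wtap-flox 1, Wtap-flox 2 or Wtap-CKO 1. Genes near 0 changed sign: Adamts12 to -0.053, -0.11 and -0.12 under upper-quartile, TPM and mitochondria-free TPM scaling (-0.082 to 0.10 leaving out a library), Adamts2 to -0.048, -0.12 and -0.13 under the same and -0.016 with quantile scaling (-0.092 to 0.15), Adamts4 to -0.0061 with mitochondria-free TPM and -0.069 with array weights (-0.043 to 0.25), Adamts14 to -0.044 with array weights, and Mmp14 to -0.036, -0.047 and -0.0014 with TPM, mitochondria-free TPM and quantile scaling. Leaving out a library gave -0.13 to 0.068 for Adamts9, -0.11 to 0.069 for Timp2 and -0.25 to 0.10 for Chchd10, and Wtap ran from -0.13 to 0.086 and was 0.0076 with array weights. With the replicate block 8 members were called higher and 2 lower (1048 and 625 over all genes), Adamtsl4 being the member lost (adjusted p = 0.0507). The cause of these shifts was not tested. Depth limits the members under 1 FPKM, for which small differences could not be detected.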

Other observations

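The ADAM proteases, membrane-bound relatives of the ADAMTS family that shed receptors and growth factors from the cell surface, held few calls. The meprin genes on the same list were at 0 FPKM in every library and were not tested. Of the 9 tested genes, Ece1 among them, a rise of 1 and a fall of 1 was called. The shares of all tested genes were 9.91% and 6.69%. The median log2 fold change of the list was 0.0032. Adam9, a widely expressed sheddase, was at 22.1, 27.4 and 23.8 FPKM in Wtap-flox and at 70.2, 71.6 and 53.5 FPKM in Wtap-CKO, with no overlap (log2 fold change 1.37, adjusted p = 0.0012, limma). Adam11, a member without protease activity, fell from 2.90 ± 0.275 to 1.51 ± 0.343 FPKM (log2 fold change -0.64, adjusted p = 0.0152), a call lost without Wtap-flox 1 (adjusted p = 0.0535), Wtap-flox 2 (0.0619) or Wtap-CKO 1 (0.0565). Ece1, the endothelin-converting metalloprotease, was at 20.2 ± 2.67 and 27.9 ± 2.31 FPKM and missed the threshold (log2 fold change 0.45, adjusted p = 0.0538). Basement membrane collagens and laminins, substrates of the gelatinases, had no call among 12 tested genes, and their median log2 fold change was -0.14. Col18a1, the source of endostatin, was at 23.5 ± 2.30 and 17.5 ± 1.60 FPKM (log2 fold change -0.41, adjusted p = 0.059), and Col15a1 at 47.7 ± 9.73 and 31.6 ± 5.50 FPKM (-0.57, adjusted p = 0.0673). Col4a2, a chain of the main collagen IV network, lay the other way, at 0.40 (adjusted p = 0.156). Over all alternatives 0 of the 12 were called higher and 0 to 3 lower.

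Transcription factors of the AP-1, ETS and RUNX families are known regulators of MMP and ADAMTS genes. The RUNX genes lay below the limit of 1 FPKM and were not tested. Of the 12 tested AP-1 and ETS genes 5 were called higher and 2 lower, beside 9.91% and 6.69% of all tested genes. The median log2 fold change of the list was 0.58. Fos rose from 1.84 ± 0.685 to 6.85 ± 0.759 FPKM (log2 fold change 1.49, adjusted p = 0.00156) and Junb from 5.32 ± 1.20 to 14.3 ± 3.79 FPKM (1.27, adjusted p = 0.00444). The ETS factor Etv4 rose by 0.90 (adjusted p = 0.00632) and the AP-1 factor Fosl2 by 0.77 (adjusted p = 0.0101). Jun, the usual partner of Fos, was called lower, at 38.4, 40.2 and 40.8 FPKM in Wtap-flox and at 23.6, 29.9 and 28.6 FPKM in Wtap-CKO (log2 fold change -0.53, adjusted p = 0.026). That call was lost without Wtap-flox 1 (adjusted p = 0.0587), Wtap-flox 2 (0.0921), Wtap-flox 3 (0.079) or Wtap-CKO 1 (0.107), and in each of those fits no gene of the list was called lower. Fos, Junb, Etv4 and Fosl2 were called in every alternative that tested them.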
